A study of Mus musculus with 10 samples.

Results

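The genes described here are targets of the transcription factor p53, taken as a list of 10: Mdm2, Ccng1, Cdkn1a, Bax, Bbc3, Pmaip1, Perp, Trp53inp1, Sesn2 and Phlda3. Of these, 9 had at least 1 probe set that carried their symbol alone in the platform annotation, with 16 probe sets in all, out of 18194 genes so named on the array. Bax was not analysed here, and neither was the gene of p53 itself. The samples are 10 Affymetrix arrays of NG4 mouse embryonic stem cells that were transfected with siRNA as they were plated and differentiated in retinoic acid, and RNA was taken after 48 h. Each of 5 groups has 2 arrays: siSox17, siFbxw7, siSocs3 and siRnf31, each named for the gene its siRNA is directed against, and siNonTarget, the control siRNA. All groups, siNonTarget included, share the cell line, the transfection and the retinoic acid, and no group without siRNA is among them.

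p53 is held at a low level in unstressed cells because Mdm2, a ubiquitin ligase that p53 itself induces, marks it for destruction by the proteasome. Stress such as DNA damage blocks that loop, and p53 then raises genes that stop the cell cycle (Cdkn1a, the inhibitor p21), open the mitochondrial route of cell death (the BH3-only genes Bbc3, or Puma, and Pmaip1, or Noxa) or temper growth signalling and oxidative stress (Sesn2, Phlda3, Trp53inp1). Embryonic stem cells carry abundant p53, and p53 is known to repress the pluripotency gene Nanog as they differentiate.

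p53 binds DNA at paired decamers of a fixed consensus, the p53 half-sites, which lie next to each other in its strongest targets. The RefSeq promoter windows (250 bases before to 50 bases after a start, GRCm38.p6) covered 7 of the 10 genes with 10 windows. A search for the p53 half-site with no mismatch, whose consensus reads the same on both strands, found it in 4 of these 10 windows and in 8.36% of all 32851 windows. A search for 2 such half-sites 0 to 13 bases apart found a pair in 1 member window and in 0.0731% of all windows. That window was of Cdkn1a, with half-sites at bases -73 and -51. A search for 2 adjacent half-sites with at most 1 of 20 bases off the consensus was chosen after the Cdkn1a sequence had been seen. It found a match in 2 member windows (1 of Cdkn1a and that of Ccng1) and in 0.067% of all windows. Both are shown because they hold the paired letters that p53 recognizes, with the Mdm2 window for comparison. Each line gives the 250 bases before the start, 5′ to 3′ on the gene's strand, with matches in capitals.
Cdkn1a, upstream start: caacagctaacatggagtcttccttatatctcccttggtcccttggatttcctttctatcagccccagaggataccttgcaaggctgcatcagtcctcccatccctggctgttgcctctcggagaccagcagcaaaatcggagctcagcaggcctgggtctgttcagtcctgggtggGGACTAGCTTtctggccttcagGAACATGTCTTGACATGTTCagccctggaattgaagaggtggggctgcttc
Ccng1: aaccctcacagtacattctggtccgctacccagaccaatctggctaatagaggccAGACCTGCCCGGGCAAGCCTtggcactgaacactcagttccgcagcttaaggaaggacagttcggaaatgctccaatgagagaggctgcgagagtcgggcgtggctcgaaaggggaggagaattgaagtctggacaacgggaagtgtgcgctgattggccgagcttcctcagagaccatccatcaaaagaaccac
Mdm2: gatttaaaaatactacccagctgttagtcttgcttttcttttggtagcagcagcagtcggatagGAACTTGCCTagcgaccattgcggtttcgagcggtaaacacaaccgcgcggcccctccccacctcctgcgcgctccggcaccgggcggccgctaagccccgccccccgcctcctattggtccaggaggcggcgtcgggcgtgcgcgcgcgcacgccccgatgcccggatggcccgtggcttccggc
The Cdkn1a sequence is chr17:29090729-29090978 on the plus strand and belongs to the upstream of its 2 annotated starts, which lie 2790 bases apart. Its adjacent pair, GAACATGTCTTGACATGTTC, runs from base -51 to base -32 before that start, and a single half-site stands at base -73. The window of the other Cdkn1a start held no match. The Ccng1 sequence is chr11:40755287-40755536 on the minus strand, and its adjacent pair, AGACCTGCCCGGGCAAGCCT, runs from base -195 to base -176. The Mdm2 sequence is chr10:117710759-117711008 on the minus strand, with a single half-site, GAACTTGCCT, at base -186. Its p53-responsive promoter is known to lie in the first intron, outside this window. A match describes letters only, and binding of p53 was not measured.

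Levels are log2 of the deposited intensity of the probe set with the highest mean of each gene, and can be compared between arrays for 1 gene but not between genes. The 9 genes were well within the measured range: their probe sets lay between the 78.7th percentile (Sesn2) and the 99th percentile (Trp53inp1) of all probe sets by mean. The median intensity of all probe sets was 46.39 to 47.95 over the 10 arrays, so array brightness was close to even. The targeted transcripts do not settle the labels: the log2 change against siNonTarget (± SE, with 2 arrays a group) was 0.03 ± 0.53 for Sox17 in the group labelled siSox17, -0.25 ± 0.15 for Fbxw7 in siFbxw7, 0.44 ± 0.24 for Socs3 in siSocs3 and -0.40 ± 0.17 for Rnf31 in siRnf31, with adjusted p between 0.281 and 0.988 (limma, Benjamini-Hochberg over all genes). In the direct comparisons none of them passed either. For Fbxw7 the siFbxw7 arrays lay below those of every other targeted group (-0.75 ± 0.15 against siSox17). For Rnf31 the siRnf31 arrays lay below siSox17 and siSocs3 but overlapped siFbxw7. Sox17 in siSox17 overlapped every other targeted group, and Socs3 in siSocs3 lay above siSox17 and siFbxw7. Every direction below therefore rests on the labels. Of 10 embryonic stem cell markers, the mean log2 intensity was 10.6 to 11.96 over the arrays, and that of 15 markers of fibroblasts, the usual feeder cells, was 5.69 to 6.31. The arrays siNonTarget replicate 1 and siFbxw7 replicate 1 stood apart with an actin 3′ minus 5′ difference of 0.50 and 0.60 on the log2 scale, a sign of RNA quality, where the other 8 arrays read 0.21 to 0.29. Whether the 2 arrays of a group are separate cultures is not in the labels; the p-values then rest on a spread between arrays that may be technical.

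Relative to siNonTarget, the p53 targets had higher mean levels on the arrays labelled siSox17, at intermediate levels in siFbxw7 and siRnf31, and unevenly in siSocs3, but none of the 9 genes passed the test in any of these 4 comparisons. In siSox17, all 9 estimates were above 0 (49.4% of all genes), with a median of 0.63 on the log2 scale against 0.00 over all genes, and for 8 of the 9 both siSox17 arrays read above both control arrays, which held for 23.3% of all genes. At an unadjusted p under 0.05, 6 of the 9 were higher, against 7.93% of all genes. The adjusted test called 0 of the 9 higher, against 0% of all genes (limma, adjusted p under 0.05); it called 0.0055% of genes in either direction, which is 1 gene of 18194. Without siNonTarget replicate 1, or without both arrays of high actin difference, the median of the 9 in siSox17 was 0.42. Without siSox17 replicate 1 it was 0.43. The intermediate levels were sensitive to single arrays, and the lowest median with 1 array left out is given for each. Leaving out siFbxw7 replicate 2 also lowered the siFbxw7 median. Leaving out siNonTarget replicate 1 also lowered the siRnf31 median. The siFbxw7 median was 0.26, but 0.01 without siNonTarget replicate 1. The siRnf31 median was 0.34, but 0.07 without siRnf31 replicate 1.

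**Figure D1:**
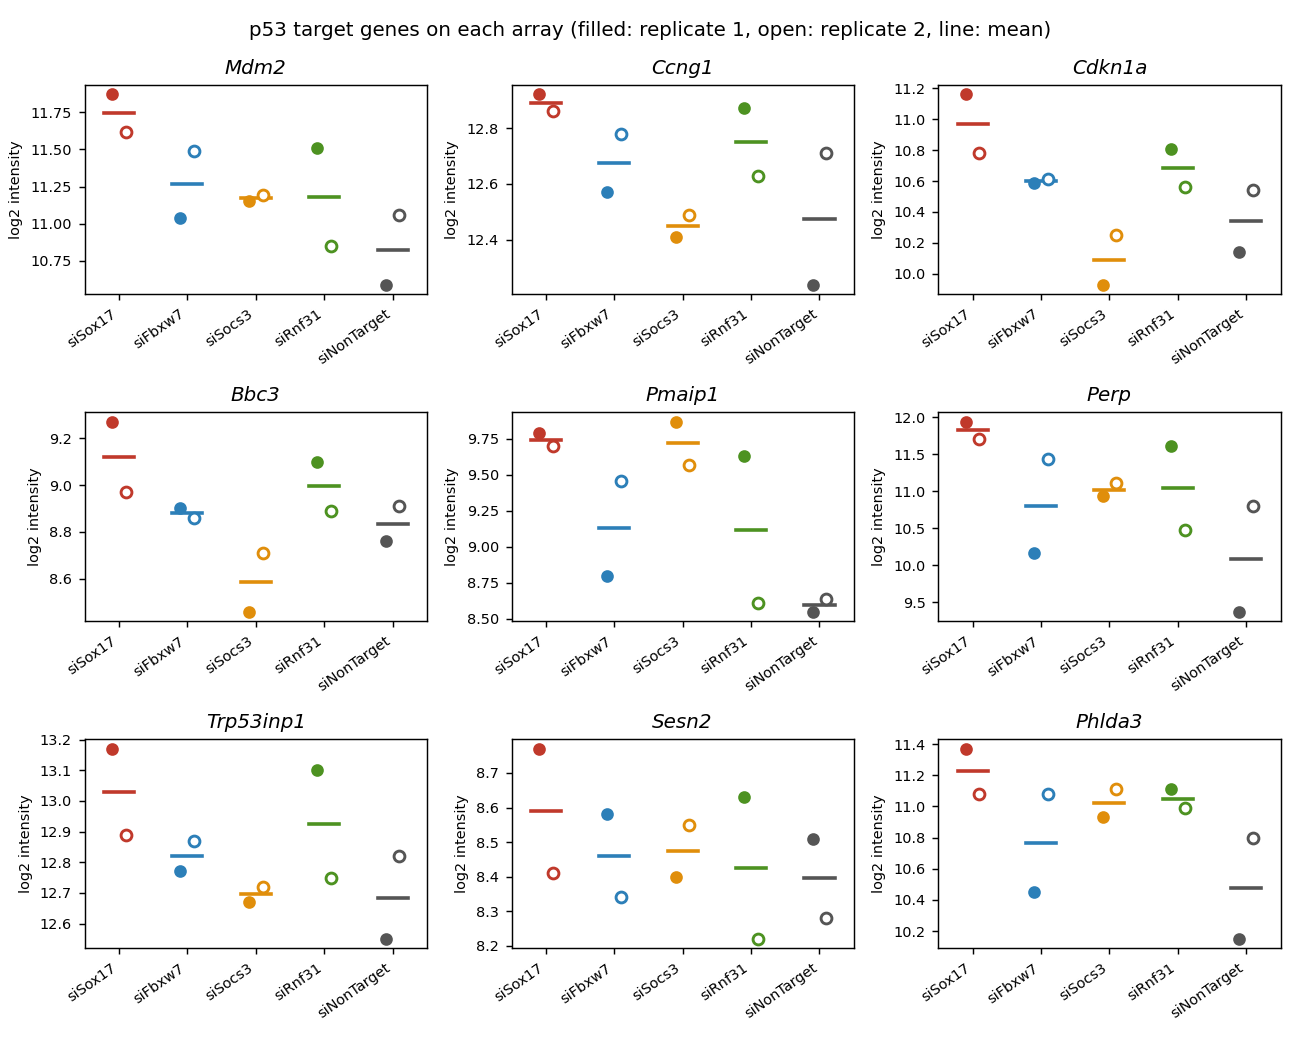
Log2 intensity (vertical axis) of the 9 p53 target genes on each of the 10 arrays, by siRNA group (horizontal axis); filled circles are replicate 1, open circles replicate 2, and lines are group means. Replicate 1 of siSox17 is the highest array for 8 of the 9 genes, and replicate 1 of siNonTarget is the lowest for 6.

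Among the regulators of p53 itself, Mdm2 read 11.87 and 11.62 in siSox17, 11.04 and 11.49 in siFbxw7, 11.15 and 11.19 in siSocs3, 11.51 and 10.85 in siRnf31, and 10.59 and 11.06 in siNonTarget (log2, replicates 1 and 2). Both siSox17 arrays lay above the other 8, while the siFbxw7 and siRnf31 arrays overlapped the controls. The change was 0.92 ± 0.24 in siSox17 (1.89-fold, adjusted p = 0.145, limma), 0.44 ± 0.24 in siFbxw7, 0.35 ± 0.24 in siSocs3 and 0.35 ± 0.24 in siRnf31, with adjusted p from 0.406 to 0.786 in the last 3. A second Mdm2 probe set gave 1.08 ± 0.38, 0.45 ± 0.38, 0.78 ± 0.38 and 0.54 ± 0.38 in the same order of groups. The remaining one, at the 22.7th percentile of all probe sets, was near the bottom of the range and changed by 0.25 ± 0.20 in siSox17.

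Ccng1 encodes cyclin G1, which brings a phosphatase to Mdm2 and so acts in the same feedback loop. It read 12.92 and 12.86 in siSox17, 12.57 and 12.78 in siFbxw7, 12.41 and 12.49 in siSocs3, 12.87 and 12.63 in siRnf31, and 12.24 and 12.71 in siNonTarget. The siSox17 arrays were above both controls, and the siSocs3 arrays lay between the controls. Its change in siSox17 was 0.41 ± 0.16 (adjusted p = 0.24, limma), and its other probe sets gave 0.68 ± 0.23 and 0.59 ± 0.33. Without siNonTarget replicate 1 the change was 0.18. The probe sets differed in siSocs3, at -0.02 ± 0.16, 0.55 ± 0.23 and 0.25 ± 0.33, so no direction is given for Ccng1 there.

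Cdkn1a, which encodes the cyclin-dependent kinase inhibitor p21, read 11.16 and 10.78 in siSox17, 10.59 and 10.61 in siFbxw7, 9.93 and 10.25 in siSocs3, 10.81 and 10.56 in siRnf31, and 10.14 and 10.54 in siNonTarget. The siSox17, siFbxw7 and siRnf31 arrays all lay above both controls, some of them narrowly, and siSocs3 replicate 1 was the lowest of the 10. The changes were 0.63 ± 0.18 in siSox17 (1.54-fold, adjusted p = 0.164, limma), 0.26 ± 0.18 in siFbxw7, -0.25 ± 0.18 in siSocs3 and 0.34 ± 0.18 in siRnf31. The second Cdkn1a probe set gave 0.84 ± 0.30, 0.24 ± 0.30, 0.00 ± 0.30 and 0.70 ± 0.30.

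Of the apoptosis genes, Pmaip1, the BH3-only gene Noxa, read 9.79 and 9.70 in siSox17, 8.80 and 9.46 in siFbxw7, 9.87 and 9.57 in siSocs3, 9.63 and 8.61 in siRnf31, and 8.55 and 8.64 in siNonTarget. Both siSox17 and both siSocs3 arrays stood far above the controls, whereas siRnf31 replicate 2 was level with them. The change was 1.15 ± 0.31 in siSox17 (2.21-fold, adjusted p = 0.151, limma) and 1.12 ± 0.31 in siSocs3 (2.18-fold, adjusted p = 0.0549). In siSocs3 it was past the threshold in the fit of both groups alone (adjusted p = 0.017) and without the dimmest 50% of genes (adjusted p = 0.048). In the other settings that kept all 10 arrays it did not pass. Its adjusted p was 0.0608 with the mean over probe sets for each gene and 0.0783 with every probe set tested. With single arrays left out its change in siSocs3 ran from 0.97 to 1.27. In siSox17 it passed in the fit of both groups alone (adjusted p = 0.0237). Pmaip1 was 0.54 ± 0.31 in siFbxw7 and 0.52 ± 0.31 in siRnf31, values that 1 array carried: without siFbxw7 replicate 2 it was 0.21, and without siRnf31 replicate 1 it was 0.02.

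Bbc3, the BH3-only gene Puma, read 9.27 and 8.97 in siSox17, 8.90 and 8.86 in siFbxw7, 8.46 and 8.71 in siSocs3, 9.10 and 8.89 in siRnf31, and 8.76 and 8.91 in siNonTarget. Unlike Pmaip1, it was lowest on the siSocs3 arrays, both of which lay below both controls. Its changes were small, 0.29 ± 0.14 in siSox17 (adjusted p = 0.339, limma), 0.05 ± 0.14 in siFbxw7, -0.25 ± 0.14 in siSocs3 (adjusted p = 0.301) and 0.16 ± 0.14 in siRnf31. Without siSox17 replicate 1 the value in siSox17 was 0.13.

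Perp, which encodes a membrane protein of desmosomes that also takes part in p53-dependent cell death, varied most of the 9 genes, over a range of 2.57 on the log2 scale. It read 11.94 and 11.70 in siSox17, 10.17 and 11.44 in siFbxw7, 10.93 and 11.11 in siSocs3, 11.61 and 10.47 in siRnf31, and 9.37 and 10.80 in siNonTarget. The replicates of siNonTarget, siFbxw7 and siRnf31 differed from each other by over 2-fold. The change in siSox17 was the largest of the 9 but also had the largest error, 1.74 ± 0.54 (3.33-fold, adjusted p = 0.17, limma), and was 1.02 without siNonTarget replicate 1. It was 0.72 ± 0.54 in siFbxw7, 0.94 ± 0.54 in siSocs3 and 0.96 ± 0.54 in siRnf31, and without siNonTarget replicate 1 it was 0.01, 0.22 and 0.24 in the same order. Without siFbxw7 replicate 2 it was 0.09 in siFbxw7, and without siRnf31 replicate 1 it was 0.39 in siRnf31.

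Of the remaining genes, Phlda3, an inhibitor of the kinase AKT, read 11.37 and 11.08 in siSox17, 10.45 and 11.08 in siFbxw7, 10.93 and 11.11 in siSocs3, 11.11 and 10.99 in siRnf31, and 10.15 and 10.80 in siNonTarget. The arrays of siSox17, siSocs3 and siRnf31 were above both controls. Its changes were 0.75 ± 0.25 in siSox17 (adjusted p = 0.184, limma), 0.29 ± 0.25 in siFbxw7, 0.54 ± 0.25 in siSocs3 (adjusted p = 0.201) and 0.57 ± 0.25 in siRnf31 (adjusted p = 0.778). Trp53inp1, a stress protein that promotes p53 activity and autophagy, read 13.17 and 12.89 in siSox17, 12.77 and 12.87 in siFbxw7, 12.67 and 12.72 in siSocs3, 13.10 and 12.75 in siRnf31, and 12.55 and 12.82 in siNonTarget. It was 0.34 ± 0.15 in siSox17 (adjusted p = 0.29) and 0.01 ± 0.15 in siSocs3, and its dimmer probe set gave 0.76 ± 0.35 in siSox17. Sesn2, a sestrin that restrains the growth kinase complex mTORC1, was the exception in siSox17, with 8.77 and 8.41 there, 8.58 and 8.34 in siFbxw7, 8.40 and 8.55 in siSocs3, 8.63 and 8.22 in siRnf31, and 8.51 and 8.28 in siNonTarget. Its groups overlapped in all 4 comparisons, with changes of 0.03 to 0.19 and an error of 0.18 each.

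**Figure D2:**
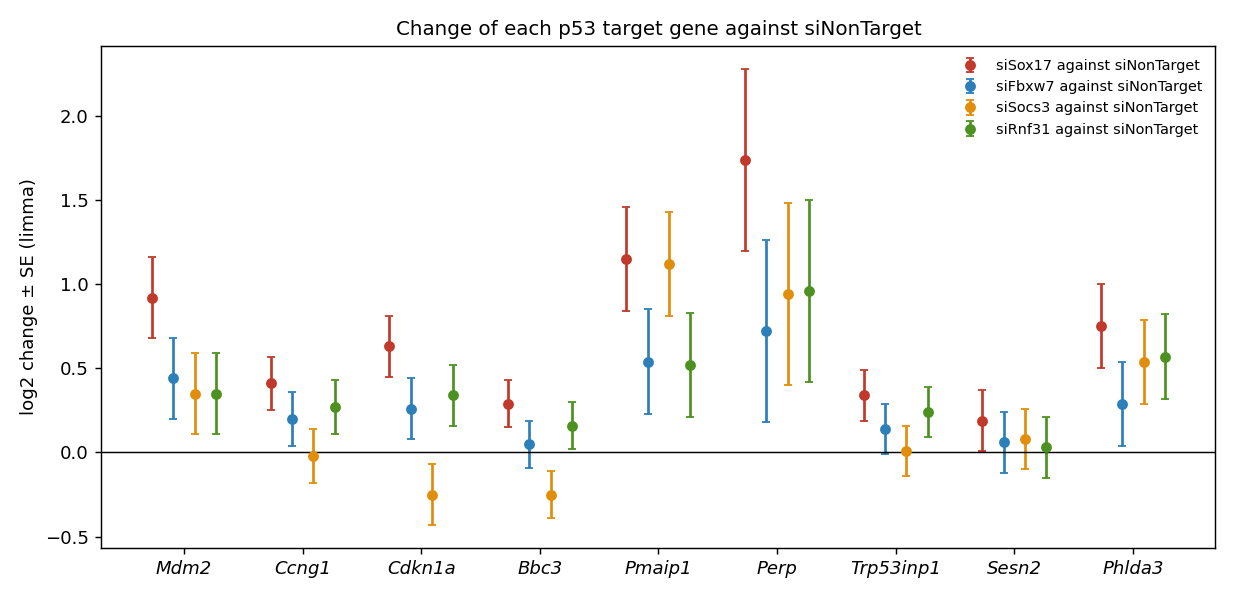
Log2 change against siNonTarget (vertical axis, points) with its limma standard error (bars) for the 9 p53 target genes (horizontal axis) and the 4 targeted siRNAs (colours). The siSox17 estimates are all above 0, from 0.19 (Sesn2) to 1.74 (Perp), and in siSocs3 Cdkn1a and Bbc3 are both at -0.25 while Pmaip1 is at 1.12; no point passed the adjusted test.

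In siFbxw7 the 9 estimates ran from 0.05 to 0.72 with a median of 0.26, in siRnf31 from 0.03 to 0.96 with a median of 0.34, and in siSocs3 from -0.25 to 1.12 with a median of 0.08, where the median over all genes was 0.00, 0.00 and 0.03. Estimates were above 0 for 9 of 9 in siFbxw7 (50.2% of all genes), 9 of 9 in siRnf31 (49.1%) and 6 of 9 in siSocs3 (54%). Both arrays lay above both controls for 2 genes in siFbxw7 (16.9% of all genes), 2 in siRnf31 (16.6%) and 4 in siSocs3 (30.6%), where Bbc3 lay below both controls (26.7%), with shares in siFbxw7 and siRnf31 close to those of the whole array. By the adjusted limma test 0 of 9 passed in each, against 0% of all genes in siFbxw7, 0% in siRnf31 and 9.26% in siSocs3, and at an unadjusted p under 0.05 there were 0 in siFbxw7 (6.45% of all genes), 1 in siRnf31 (Phlda3, 5.87% of all genes) and 1 in siSocs3 (Pmaip1, 26.2% of all genes). Without siNonTarget replicate 1 the median in siFbxw7 was 0.01, and without siRnf31 replicate 1 the median in siRnf31 was 0.07. With single arrays left out, the siSox17 change ran from 0.69 to 1.15 for Mdm2, 0.42 to 0.83 for Cdkn1a, 0.42 to 1.07 for Phlda3 and 0.20 to 0.48 for Trp53inp1, and the siRnf31 change from 0.03 to 0.68 for Mdm2 and 0.25 to 0.89 for Phlda3. The 4 comparisons use the same 2 control arrays, so they are not independent of one another.

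The within-group SD of the mean level of the 9 genes was 0.24 on the log2 scale. Over the 9 genes, the mean level centred on each gene's own mean was 0.50 and 0.25 in siSox17, -0.21 and 0.13 in siFbxw7, -0.11 and 0.00 in siSocs3, 0.29 and -0.19 in siRnf31, and -0.54 and -0.13 in siNonTarget (log2, replicates 1 and 2). The siSox17 replicates were therefore 2 of the 3 highest arrays, with siRnf31 replicate 1 between them. The 2 arrays of high actin difference, siNonTarget replicate 1 and siFbxw7 replicate 1, were the 2 lowest, the second of them level with siRnf31 replicate 2, and the part of RNA quality in these levels was not tested. Replicate 1 of siSox17 was the highest of the 10 arrays for 8 of the 9 genes (11.2% of all genes), the exception being Pmaip1, which was highest on siSocs3 replicate 1 (15.3%). Replicate 1 of siNonTarget was the lowest for 6 (13.2% of all genes), siSocs3 replicate 1 for Cdkn1a and Bbc3 (17%) and siRnf31 replicate 2 for Sesn2 (10.7%). Within siRnf31, replicate 2 was below replicate 1 for all 9 genes, by a median of 0.34, although replicate 2 was the higher one for 50.8% of all genes. In siSox17 replicate 2 was also below replicate 1 for all 9, by a median of 0.28, where 49.6% of all genes read higher on replicate 2. In bulk RNA, a smaller number of cells with high p53 target expression and less RNA per cell cannot be told apart.

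**Figure D3:**
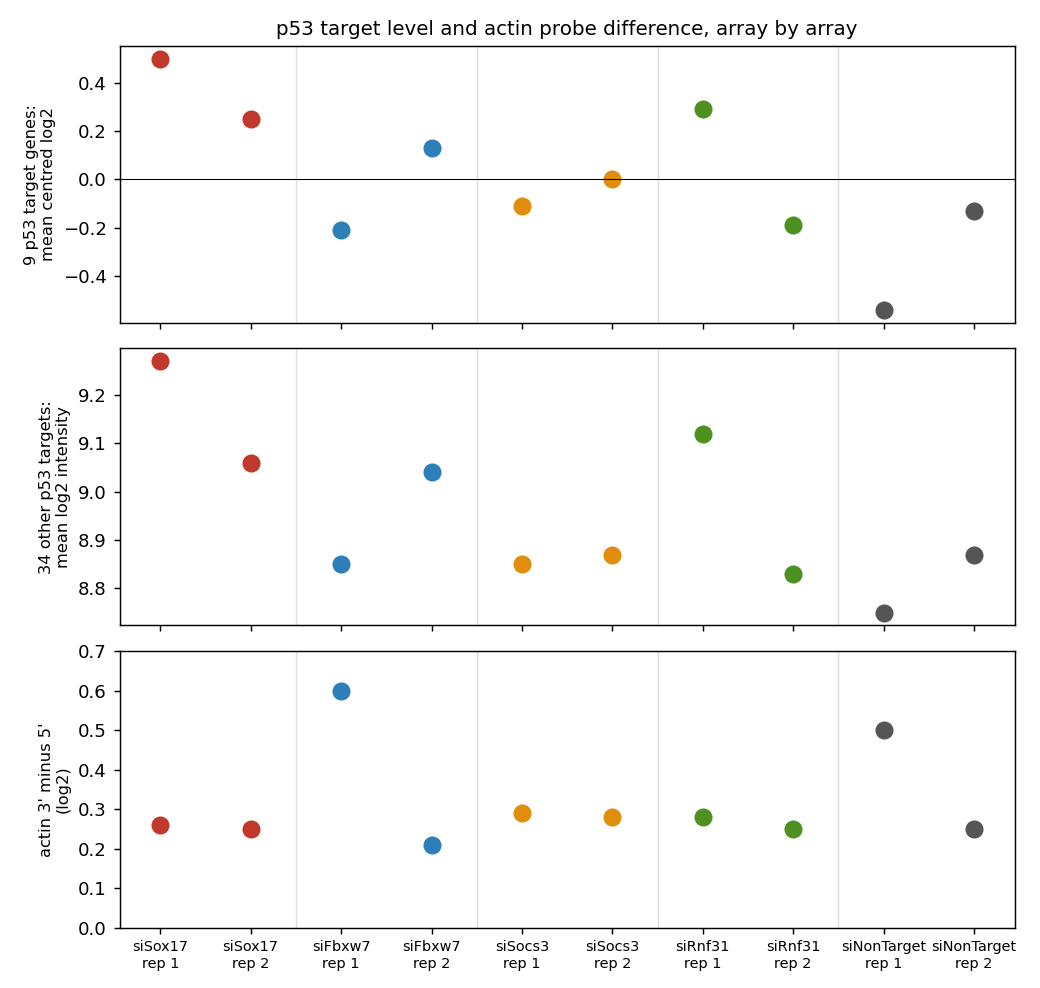
For each of the 10 arrays (horizontal axis), the mean log2 level of the 9 p53 target genes centred on each gene's mean (top), the mean log2 intensity of 34 other p53 targets (middle) and the actin 3′ minus 5′ log2 difference (bottom). siSox17 replicate 1 is highest in both upper panels and siNonTarget replicate 1 lowest; siNonTarget replicate 1 and siFbxw7 replicate 1 stand apart in the bottom panel at 0.50 and 0.60.

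The estimates of the 6 direct comparisons between targeted siRNAs do not use the control arrays. Their errors and p-values do, because the spread was estimated from all 10 arrays. In siSocs3 against siSox17, Cdkn1a fell by 0.87 ± 0.18 on the log2 scale (to 0.546-fold, adjusted p = 0.0438, limma, n = 2 arrays per group), with 9.93 and 10.25 in siSocs3 against 11.16 and 10.78 in siSox17. It was the only call among the 9 genes in the 10 comparisons made. Both siSocs3 arrays lay below both siSox17 arrays. The call is close to the threshold: the adjusted p was 0.0687 with the replicate number as a block, 0.0539 after median centring, 0.0991 with the mean of its probe sets, and 0.0556 to 0.339 without 1 array of siSox17, siSocs3, siFbxw7 or siRnf31. Across all genes 2.61% passed in this comparison, and 0.967% were called lower, against 1 of the 9 p53 targets.

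In the same comparison all 9 estimates were below 0, where 52.1% of all genes were above 0, with a median of -0.44 against 0.01 over all genes, and both siSocs3 arrays were below both siSox17 arrays for 6 of the 9 (25.6% of all genes). Bbc3 was -0.53 ± 0.14 (adjusted p = 0.0891, limma), Mdm2 -0.58 ± 0.24 (0.266), Ccng1 -0.44 ± 0.16 (0.207) and Perp -0.80 ± 0.54 (0.498). Pmaip1 was -0.03 ± 0.31 (0.978), and its arrays overlapped, whereas those of Bbc3 and Perp did not. Against siSox17, all 9 estimates were also below 0 in siFbxw7, with a median of -0.37, where 53.4% of all genes were above 0. Both siFbxw7 arrays lay below both siSox17 arrays for 7 of the 9 (16.7% of all genes), and limma called 0 of 9 against 0% of all genes, with 0 at an unadjusted p under 0.05 (5.59% of all genes). In siRnf31 all 9 were below 0 as well, with a median of -0.18, where 50.4% of all genes were above 0. Both siRnf31 arrays lay below both siSox17 arrays for 3 of the 9 (19.6% of all genes), and limma called 0 of 9 against 0%, with 1, Mdm2 at -0.57 ± 0.24, at an unadjusted p under 0.05 (7.68% of all genes). These comparisons share the siSox17 arrays. Against siFbxw7 and siRnf31, Cdkn1a in siSocs3 was -0.51 ± 0.18 (adjusted p = 0.183) and -0.59 ± 0.18 (adjusted p = 0.149), with both siSocs3 arrays below both arrays of each. Such separation held for 4 of the 9 genes against siFbxw7 (24.5% of all genes) and 4 against siRnf31 (24.1%). Of all genes 3.51% and 2.13% passed in these, and 0 of the 9 p53 targets, with Cdkn1a in the first and Cdkn1a and Bbc3 in the second at an unadjusted p under 0.05, which held for 18.5% and 16.9% of all genes. Between siFbxw7 and siRnf31 all 9 genes overlapped, and 0 passed (limma, 0% of all genes, and 0 of the 9 at an unadjusted p under 0.05, against 5.19% of all genes).

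By group mean, siSox17 was highest for all 9 genes, but its lead over the next group was larger than the SD of both groups for Mdm2 and, narrowly, Cdkn1a only. For Mdm2, siFbxw7 (11.27 ± 0.32, SD, n = 2), siRnf31 (11.18 ± 0.47) and siSocs3 (11.17 ± 0.03) lie within their spread of one another, between siSox17 (11.74 ± 0.18) and siNonTarget (10.82 ± 0.33). For Cdkn1a the order was siSox17 (10.97 ± 0.27), siRnf31 (10.69 ± 0.18), siFbxw7 (10.60 ± 0.02), siNonTarget (10.34 ± 0.28) and siSocs3 (10.09 ± 0.23). Only its ends were separated by the test. For Pmaip1 the siSox17 (9.74 ± 0.06) and siSocs3 (9.72 ± 0.21) groups overlapped at the top, and siNonTarget (8.60 ± 0.06) was lowest.

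A further list of 36 p53 targets, of which 34 were measured, gave medians in the same order of groups, against the same control arrays. Like the 9 genes, the list was chosen with earlier results of these data known. It spans cell death (Fas, Apaf1, Pidd1, Aen), arrest and checkpoint control (Btg2, Gadd45a, Plk2, Gtse1) and DNA repair and metabolism (Polk, Xpc, Ddb2, Tigar, Ephx1). In siSox17 31 of 34 estimates were above 0 (49.4% of all genes) and for 21 of 34 both arrays lay above both controls (23.3%), with a median of 0.38. The medians were 0.16 in siFbxw7, 0.06 in siSocs3 and 0.21 in siRnf31. By the adjusted test 0 of 34 passed in siSox17, siFbxw7 and siRnf31, against 0.0055%, 0% and 0% of all genes. The smallest p in siSox17 belonged to Ephx1, an epoxide hydrolase gene (1.24 ± 0.29, adjusted p = 0.138, limma), with 8.99 and 8.39 in siSox17 against 7.52 and 7.39 in siNonTarget, and to Pidd1, a death-domain scaffold gene (0.43 ± 0.11, adjusted p = 0.142), with 8.57 and 8.48 against 8.06 and 8.14. In siSocs3 the cyclin G2 gene Ccng2 fell (-0.78 ± 0.19, adjusted p = 0.0363, limma), 1 of 34, where 5.66% of all genes were called lower. It lost the call with quantile normalization (adjusted p = 0.0521), the mean of its probe sets (0.06) and every probe set tested (0.0545). The call was also lost without either array of siSocs3 or of siNonTarget, where the change ran from -0.88 to -0.68. Against siSox17, the list's median was -0.29 in siSocs3, with 0 of 34 passing (2.61% of all genes).

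**Figure D4:**
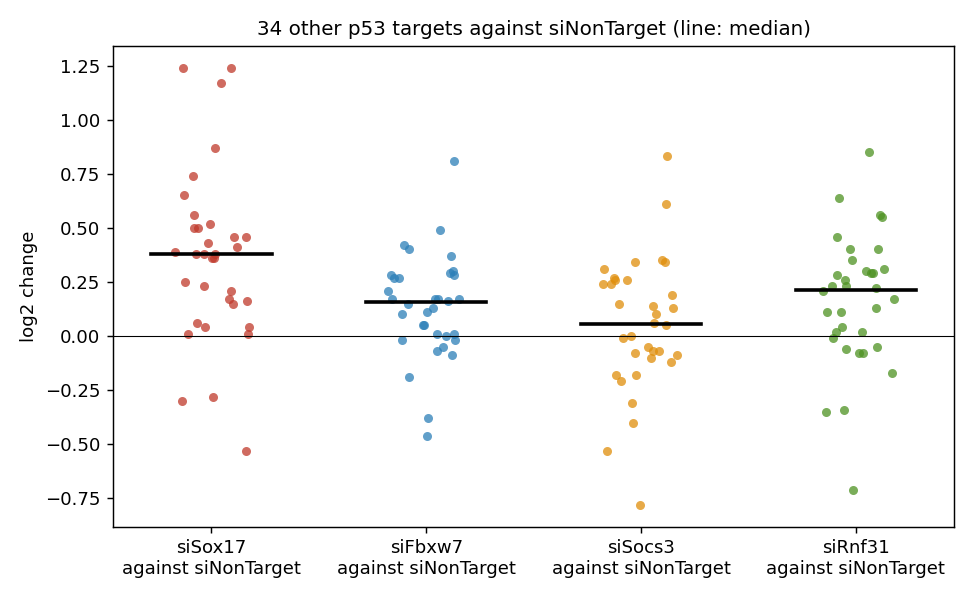
Log2 change (vertical axis) of 34 other p53 targets, 1 point a gene, in each targeted siRNA against siNonTarget (horizontal axis); black lines are medians. The medians are 0.38 in siSox17, 0.16 in siFbxw7, 0.06 in siSocs3 and 0.21 in siRnf31, and 31 of 34 genes lie above 0 in siSox17 (49.4% of all genes).

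Genes that act on p53 were near 0 as a list. Of 18 measured regulators, 6 had an estimate above 0 in siSox17 (49.4% of all genes), with a median of -0.04, and 0 passed (0.0055% of all genes). Mdm4, the partner of Mdm2 in restraining p53, was 0.10 ± 0.13 in siSox17, 0.04 ± 0.13 in siFbxw7, 0.06 ± 0.13 in siSocs3 and 0.17 ± 0.13 in siRnf31, with overlapping arrays in each. Trp73, a p53 family member, was 0.81 ± 0.16 in siSox17 (adjusted p = 0.131, limma), and 0.53 with the mean of its probe sets. It passed in the fit of both groups alone (adjusted p = 0.0415). Hipk2, a kinase that phosphorylates p53, fell in siSocs3 (-1.61 ± 0.33, adjusted p = 0.0207, limma), 1 of 18, where 5.66% of all genes were called lower. In siSox17 Hipk2 was -1.19 ± 0.33 (adjusted p = 0.157, and 0.0268 in the fit of both groups alone), and -0.52 with the mean of its probe sets. Its call in siSocs3 was lost without any 1 array of siSocs3 or siNonTarget (adjusted p = 0.0634 to 0.159), and the mean of its probe sets gave -0.73.

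Among 12 measured members of the BCL2 family, 2 fell in siSocs3, where 5.66% of all genes were called lower, and 0 passed in the other groups. These were the survival gene Bcl2 (-0.79 ± 0.16, adjusted p = 0.0189, limma) and the BH3-only gene Bcl2l11, or Bim (-0.99 ± 0.23, adjusted p = 0.0314). Both calls were lost without either array of siNonTarget or without siSocs3 replicate 1 (adjusted p = 0.0604 to 0.169). That of Bcl2l11 was also lost without siSocs3 replicate 2 (0.128) or either siSox17 array (0.0555), and for Bcl2 the mean of its probe sets gave -0.27 (0.172). In siSox17 the survival gene Bcl2l1, or Bcl-xL, was 0.59 ± 0.13 (adjusted p = 0.136) and the BH3-only gene Bmf -1.44 ± 0.31 (adjusted p = 0.138). Bmf was -0.66 with the mean of its probe sets, and it passed in the fit of both groups alone (adjusted p = 0.0235) and without either siFbxw7 array (0.0308). Of the other 6 cyclin-dependent kinase inhibitors, 0 passed in the 4 comparisons with siNonTarget. Cdkn1b, which encodes p27, was -0.58 ± 0.17 in siSox17, opposite in sign to Cdkn1a there, and -0.61 ± 0.17 in siSocs3 (adjusted p = 0.162 and 0.0524). With the mean of its probe sets it was -0.23 in siSox17 and -0.38 in siSocs3. In siSocs3 it passed in the fit of both groups alone (adjusted p = 0.0475), without the dimmest 30% (0.0473) or 50% (0.0419) of genes, with the trended and robust prior (0.0462) and without 1 array of siSox17 (0.0424) or siFbxw7 (0.0443). Of 18 interferon response genes, which siRNA can raise in some cells, 10 had an estimate above 0 in siSox17, with a median of 0.06 and 0 passing, and 2 rose in siSocs3, where 3.59% of all genes were called higher (Oas1a by 1 ± 0.12, adjusted p = 0.00433, and Rsad2 by 0.51 ± 0.12, adjusted p = 0.0323). The call of Oas1a was lost without siSocs3 replicate 1 (0.0625), and that of Rsad2 without any 1 array of siSocs3, siNonTarget or siSox17 (0.0508 to 0.208) and with the mean of its probe sets (0.21, adjusted p = 0.145). Of the 10 embryonic stem cell markers, 8 had both siSox17 arrays above both controls (23.3% of all genes). By the adjusted test 7 of the 10 rose in siSocs3 (3.59% of all genes) and 0 passed in siSox17, with median changes of 1.52 and 0.72. Of the 4 with the smallest p (Fbxo15, Nanog, Esrrb and Tdgf1), without siSocs3 replicate 1 the calls of Nanog (adjusted p = 0.0937), Esrrb (0.0937) and Tdgf1 (0.106) were lost, and without siNonTarget replicate 1 that of Tdgf1 (0.0554). Their mean log2 intensity was 11.14 and 11.30 in siSox17, 10.83 and 11.12 in siFbxw7, 11.96 and 11.77 in siSocs3, 11.30 and 10.73 in siRnf31, and 10.68 and 10.60 in siNonTarget. Of the 15 fibroblast markers, 6 had both siSox17 arrays below both controls (24.9% of all genes), with a median of -0.23 and 0 passing, and Col1a2, a collagen gene, was -1.03 ± 0.33 there (adjusted p = 0.18, limma). In siSocs3 their median was 0.00, with 9 of 15 estimates above 0 (54% of all genes), and 2 fell, where 5.66% of all genes were called lower. The 2 were Col1a2 (-1.45 ± 0.33, adjusted p = 0.0309, limma) and Twist1 (-1.40 ± 0.32, adjusted p = 0.031). Both calls were lost without any 1 array of siSocs3, siNonTarget or siSox17 and without both arrays of high actin difference. With single arrays left out, the change ran from -1.57 to -1.34 for Col1a2 and from -1.61 to -1.19 for Twist1. The part of these markers in the p53 target levels was not tested.

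By root mean square difference over the 10 arrays of log2 values centred on each gene's mean, the 5 genes whose values lay nearest to Mdm2 were Fbxw9 (0.08), Slc35d1 (0.09), Gpc4, Pvt1 and Def6 (0.11 each), where Mdm2 itself ranged over 1.28. This distance counts the size of the changes as well as their pattern. Those nearest to Cdkn1a, which ranged over 1.23, were Cpb1 (0.10), Ptpn14 (0.11), L3hypdh, Masp1 and Tec (0.12 each). None of the other p53 target genes was among either set of 5, but a cut at 5 cannot show whether they share a pattern. For Cdkn1a, Bbc3 stood at rank 12 and was the nearest of them, followed by Ccng1 and Trp53inp1, while Pmaip1 and Perp were the farthest. For Mdm2, Phlda3 and Ccng1 were the nearest of them and Perp the farthest. Perp was far in size, with a range of 2.57, and not in pattern. It ordered the 10 arrays as Mdm2 did, except that siFbxw7 replicate 1 and siRnf31 replicate 2 changed places.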

How the data were processed

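Expression was measured on 10 Affymetrix arrays, 2 for each of 5 siRNA groups, grouped by the labels. From each sample 5 ng of RNA was amplified as cDNA and labelled with biotin, per the labels' protocols. The deposited values are intensities for 45101 probe sets, made by the authors with RMA per the submitters' processing notes. They run to 31606.3 and are on a linear scale, so log2 was taken first. RMA evens out array distributions and compresses dim values, and no source used here gives its version. Precision is limited by how few arrays there are.

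The probe set of highest mean stood for a gene; 34958 probe sets had 1 symbol, 932 several and 9211 were unnamed. One model over the 5 groups was fitted to 18194 genes with limma 3.58.1 in R 4.3.3 (5 residual degrees of freedom), two-sided, with Benjamini-Hochberg adjustment over all genes in each of 10 contrasts and a threshold of 0.05. The code was tested on simulated data. Promoter windows are from RefSeq. Members and lists were chosen with earlier results of these data known. Named genes are the members, the 4 targeted genes, Mdm4, up to 4 called genes of each list or else the 2 of smallest p, and the 5 genes nearest to Mdm2 and Cdkn1a; list members given only as examples of function were not named for their values. With 2 arrays a group, no exact permutation test can reach the threshold. Figures were drawn with matplotlib 3.10.9.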

Additional observations from a re-analysis of the deposited data

How the results depend on the processing

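The 10 comparisons were repeated with a replicate block, the 2 groups alone, quantile normalization, median centring, the mean over the probe sets of a gene, every probe set alone, a prior both trended and robust, the dimmest 30% or 50% of genes removed, each array left out in turn, and, chosen after seeing the data, without both arrays of high actin difference. Of the 9 p53 targets, the number called in siSox17 against siNonTarget was 1 (Pmaip1) with the 2 groups alone and 0 in every other setting run. In siSocs3 against siNonTarget it was 0, and 1 (Pmaip1) with the 2 groups alone and without the dimmest 50% of genes, and 0 to 1 with single arrays left out. In siSocs3 against siSox17 it was 1, but 0 with the replicate block, median centring, the mean of probe sets and every probe set alone, 3 with the 2 groups alone (Cdkn1a, Mdm2 and Perp), and 0 to 1 with single arrays left out. In the other 7 comparisons it was 0 throughout.

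The median change moved by more than the replicate spread of 0.24 only when an array was left out: it lay between 0.01 and 0.46 in siFbxw7 and between 0.07 and 0.54 in siRnf31, and was 0.42 to 0.83 in siSox17 and 0.01 to 0.21 in siSocs3. Of the estimates whose sign turned, none was called; the largest were Phlda3 (0.29) and Ccng1 (0.20) in siFbxw7. Leaving out single arrays gave, against siNonTarget, ranges of -0.04 to 0.44 for Ccng1 in siFbxw7, -0.03 to 0.12 for Bbc3 in siFbxw7, -0.04 to 0.61 for Phlda3 in siFbxw7, -0.06 to 0.19 for Sesn2 in siFbxw7, -0.03 to 0.12 for Mdm4 in siFbxw7, -0.13 to 0.15 for Trp53inp1 in siSocs3, -0.26 to 0.21 for Ccng1 in siSocs3, -0.03 to 0.19 for Sesn2 in siSocs3, -0.03 to 0.15 for Mdm4 in siSocs3, and -0.17 to 0.23 for Sesn2 in siRnf31. With both arrays of high actin difference left out, Bbc3 was -0.05 in siFbxw7 and Trp53inp1 -0.13 in siSocs3. In siSocs3, Trp53inp1 was also -0.01 with quantile normalization and -0.08 with the mean of probe sets, and Ccng1 was 0.26 with the mean of probe sets. The cause was not tested.

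The replicate numbers do not pair the samples by any label. Between groups, the correlation over genes of the replicate differences ran from -0.26 to 0.42. The value of 0.42 was for siNonTarget with siFbxw7, the groups whose replicate 1 had the high actin difference. All other pairs lay between -0.26 and 0.09. The count of all genes called in siSocs3 against siNonTarget was 1684, 63 to 2074 with single arrays left out and 858 without both arrays of high actin difference; in siSocs3 against siSox17 it was 474, 77 to 521 with single arrays left out, 881 with the 2 groups alone and 740 without both arrays of high actin difference; in siSocs3 against siFbxw7 it was 638, 81 to 898 with single arrays left out, 307 with the 2 groups alone and 218 without the high-actin arrays; in siSocs3 against siRnf31 it was 387, 22 to 552 with single arrays left out, 245 without the dimmest 50% and 677 without the high-actin arrays. In siSox17 against siNonTarget it was 1, 0 to 234 with single arrays left out, 254 with the 2 groups alone, 16 without the high-actin arrays and 0 to 3 otherwise. 2 arrays per group and signal near background limit small changes of dim genes.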
